A study of Mus musculus with 16 samples.

Results

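Gene expression in the wild-type MII spermatocyte fraction was compared with that in the wild-type spermatogonia fraction of the mouse testis. The libraries were chosen by their titles and comprised 4 of the 16 libraries of the series, 2 per fraction, from 8-week-old C57BL/6J male mice. All 8 wild-type libraries were labelled WT. In the other 8 libraries the genotype was Tex10f/-; Stra8iCre, in which one Tex10 allele is floxed, the other null and Cre recombinase is driven by the Stra8 promoter, which is active in spermatogonia. Those Tex10-deficient libraries served here to repeat the comparison in samples that the wild-type contrast does not use. Each genotype also had 2 libraries of MI spermatocytes and 2 of spermatids, against which levels are set below. The sorting method, and whether replicates are separate or pooled animals, were not given in the sources used here. Of the 13101 genes in the table, 13099 were tested.

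Spermatogonia are the mitotic germ cells at the base of the seminiferous tubule. They replicate their DNA, respond to retinoic acid and enter meiosis as spermatocytes, which pass a long prophase and divide at the first (MI) and then the second (MII) meiotic division to give haploid spermatids. Spermatids build the acrosome and the flagellum and replace their histones by protamines. The tubule wall holds Sertoli cells and peritubular myoid cells, and the tissue between the tubules holds Leydig cells, which make testosterone, together with fibroblasts, vessels, macrophages and lymphocytes. RNA of these somatic cells can enter a germ cell fraction. In bulk libraries of this kind, fewer cells of a type and less RNA per cell cannot be told apart.

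The MII fraction held far more Leydig cell and connective tissue transcripts than the spermatogonia fraction. It also held more of most Sertoli cell markers tested, and more transcripts of late spermatocytes, spermatids and the flagellum. The spermatogonia fraction held more transcripts of spermatogonia, DNA replication, histones, meiotic prophase and T lymphocytes. Macrophage and MHC class II transcripts were present in both fractions, with few members called. At an adjusted p under 0.05 in limma (Benjamini-Hochberg), 6178 genes differed, 47.2% of those tested. Of these, 3905 were higher in the MII fraction (29.8% of genes tested) and 2273 lower (17.4%). Differences are on the log2(FPKM + 1) scale, MII minus spermatogonia, and FPKM are fragment counts scaled to transcript length and library size. The median over all genes was 0.23, and 63.2% of the calls were higher. Under quantile normalization the median shifted to −0.16 and 44.7% of the calls were higher (3145 higher and 3896 lower). Differences smaller than this shift of the median therefore have no firm sign. Among called genes, 1930 were higher and 464 lower by at least 2 on the log2 scale.

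**Figure D1:**
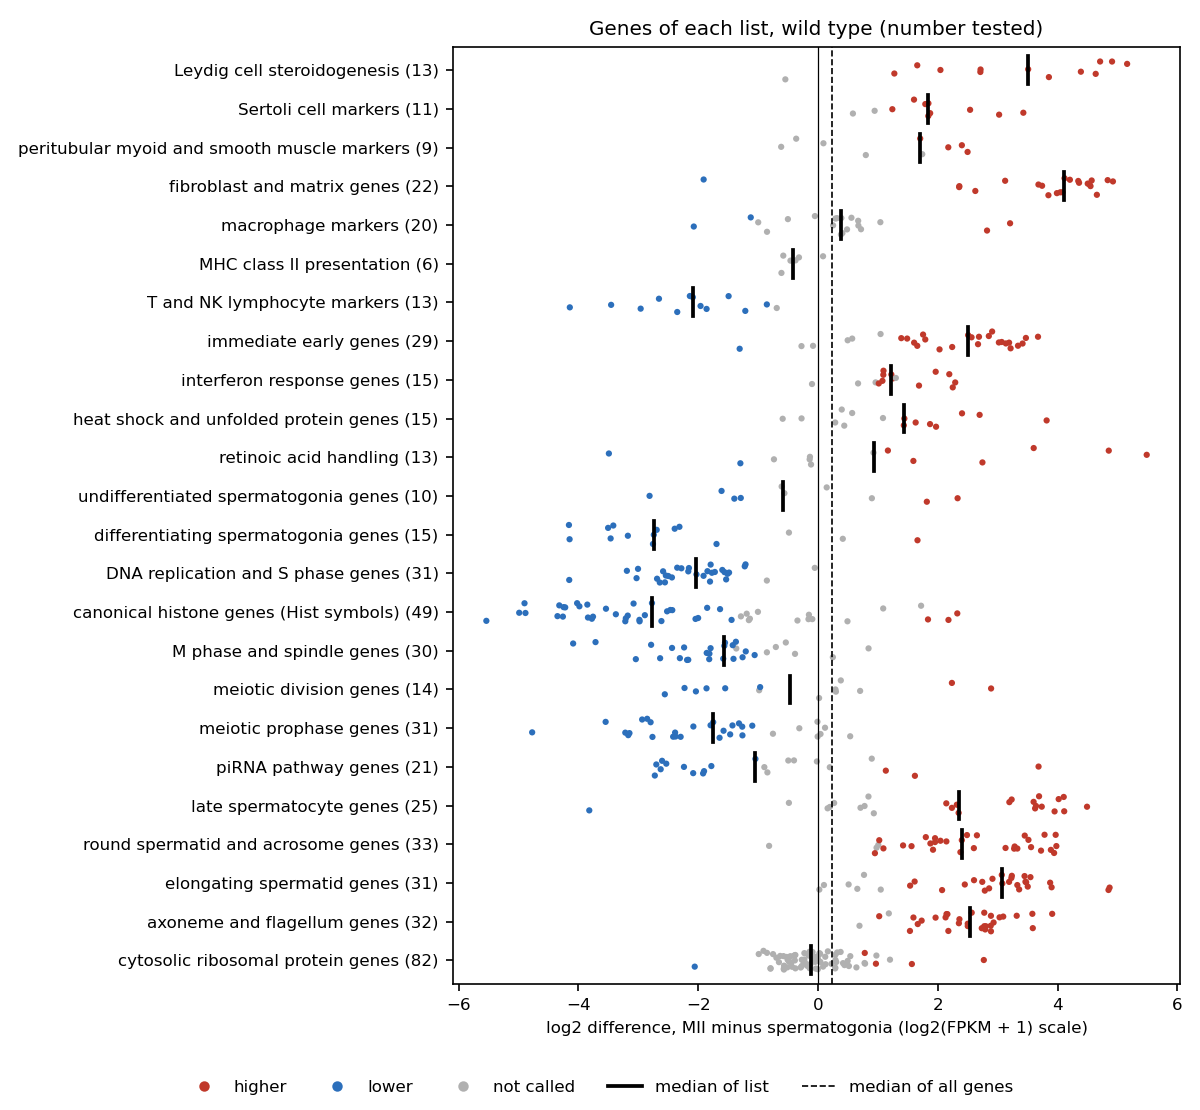
Log2 difference between the wild-type MII and spermatogonia fractions (x axis, on the log2(FPKM + 1) scale) for every tested gene of 24 lists. Points are genes, red where higher and blue where lower at an adjusted p under 0.05, and bars are list medians. The fibroblast and matrix list (median 4.10) and the Leydig list (3.51) lie to the right of the median of all genes (0.23), and the T and NK lymphocyte (−2.09), S phase (−2.03) and histone (−2.77) lists to its left.

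The 4 libraries had 10689 and 10690 genes at 1 FPKM or more in the spermatogonia fraction and 11555 and 12394 in the MII fraction. Replicates correlated across genes with a Spearman rho of 0.946 in spermatogonia and 0.881 in MII, against 0.547 to 0.585 between the fractions, and genes are not independent replicates. The labelled cell types were set against their markers over the 4 wild-type fractions. For each gene, the fraction with the highest mean level was found. Of all genes tested, 3344 (25.5%) were highest in the MII fraction. No gene of the meiotic division list was (0 of 14), of which 7 were highest in MI spermatocytes and 6 in spermatids. The same held for 0 of 30 M phase genes, 0 of 25 late spermatocyte genes, 0 of 33 round spermatid genes and 0 of 31 elongating spermatid genes. By contrast, 21 of 22 fibroblast and matrix genes, 11 of 11 Sertoli cell markers and 12 of 13 Leydig cell genes were highest there. The germ cell lists named here thus did not peak in the MII fraction, and "MII fraction" is used as the name the titles give. In the spermatogonia fraction, 13 of 15 differentiating spermatogonia genes and 25 of 31 S phase genes had their highest mean, against 3246 of all 13099 genes. The same held for 6 of 10 undifferentiated spermatogonia genes and for only 6 of 30 M phase genes. Immune markers also had their highest mean there, with 12 of 13 T and NK lymphocyte markers and 5 of 6 MHC class II genes.

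**Figure D2:**
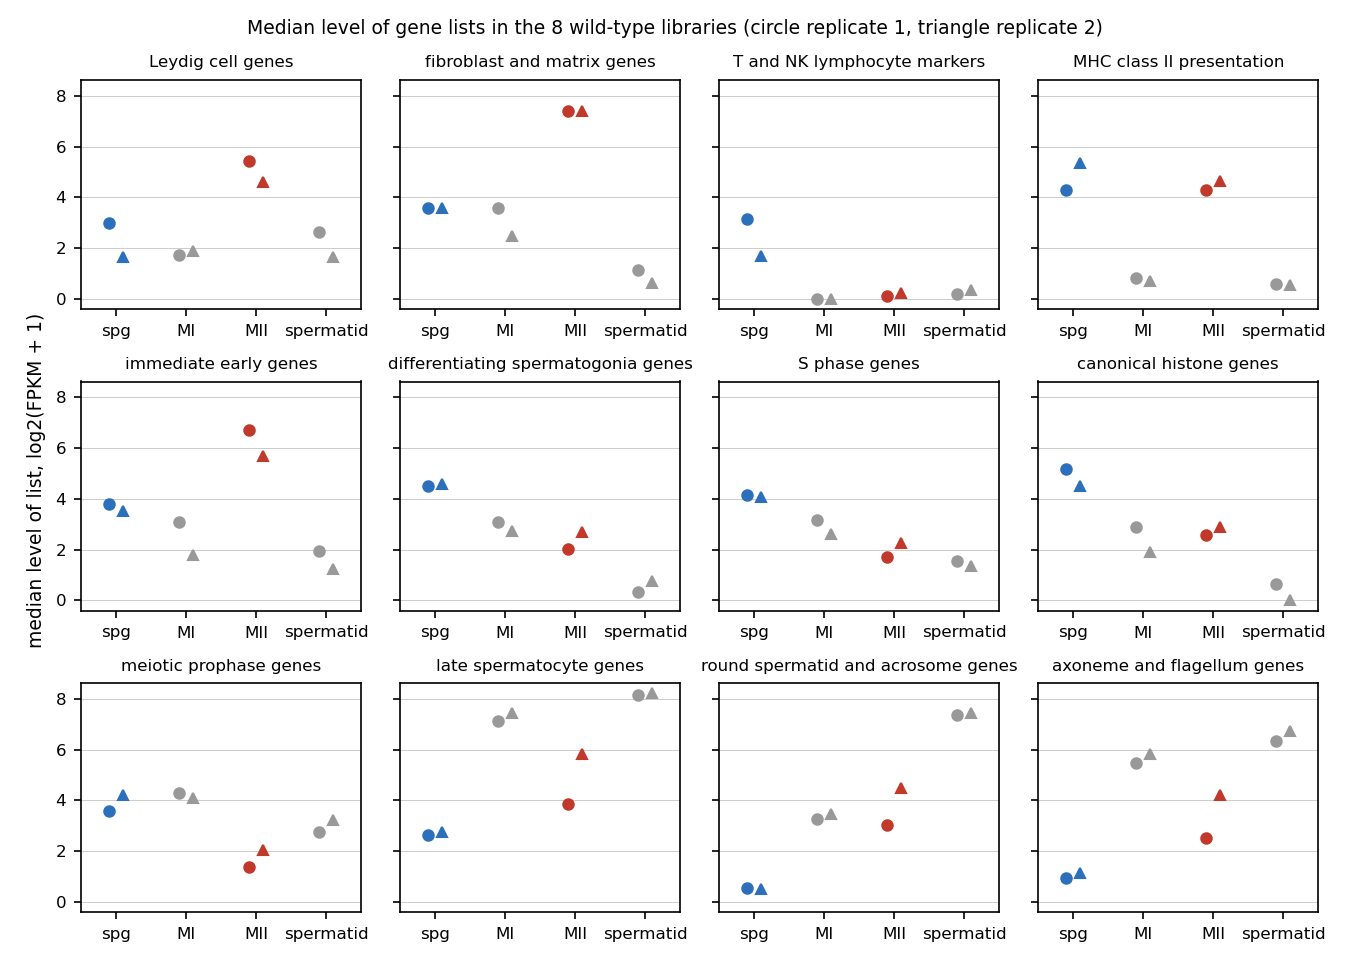
Median level of 12 gene lists (y axis, log2(FPKM + 1)) in each of the 8 wild-type libraries, by fraction (spg, spermatogonia), with 1 point per library. Leydig, fibroblast and immediate early lists peak in the MII fraction (red), late spermatocyte, round spermatid and axoneme lists lie between spermatogonia (blue) and spermatids, and MHC class II lies close together in spermatogonia and MII.

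Leydig cell genes were higher in the MII fraction. Of 13 tested genes of steroid synthesis and Leydig cell identity, 12 rose and none fell (median difference 3.51), and their FPKM summed to 104 and 50.7 in spermatogonia and 1537 and 1014 in MII. Insl3, the Leydig cell hormone that guides testis descent (GENCODE position in GRCm38 chr8:71689214-71690575, plus strand), stood at 32.04 and 9.06 FPKM in the spermatogonia libraries and 918 and 463 FPKM in the MII libraries. The mean was 33.6 times higher in the MII libraries (log2 difference 5.16, SE 1.07, adjusted p = 0.0014). Cyp11a1, which cleaves the side chain of cholesterol in the first step of steroid synthesis, stood at 4.85 and 0.812 FPKM in the spermatogonia libraries and 97.4 and 72.8 FPKM in the MII libraries (log2 difference 4.71, SE 0.73, adjusted p = 0.00018). Cyp17a1, the enzyme that leads on to androgens, stood at 7.11 and 0.165 FPKM in the spermatogonia libraries and 80.1 and 71.2 FPKM in the MII libraries. The lower of the spermatogonia libraries had almost none of it, and neither MII library came near that range (log2 difference 4.64, SE 0.98, adjusted p = 0.0016). Hsd17b3, which makes testosterone and was picked after its values were seen, stood at 2.83 and 0.462 FPKM in the spermatogonia libraries and 53.3 and 44.3 FPKM in the MII libraries (log2 difference 4.39, SE 0.78, adjusted p = 0.00051). Hsd3b6 and Hsd3b1, closely related copies whose reads may be split between them, rose by 4.91 and 3.86 (adjusted p = 0.00062 and 0.0009). Nr5a1, the transcription factor of steroid-making cells, also chosen with its values known, stood at 0.409 and 0.0802 FPKM in the spermatogonia libraries and 18.2 and 9.28 FPKM in the MII libraries. It was close to 0 in the second spermatogonia library and clearly present in both MII libraries (log2 difference 3.51, SE 0.45, adjusted p = 4.6e-05). The MI and spermatid fractions summed to 51.7 and 39.8 and to 103 and 40.7 FPKM over the 13 genes, in the range of the spermatogonia fraction or near it.

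Most Sertoli cell markers tested were higher in the MII fraction as well, while fewer myoid markers were called. Of 11 tested Sertoli cell markers out of 20 listed, 9 rose and none fell (median 1.84). Gata4, a transcription factor of somatic gonadal cells, stood at 1.99 and 3.11 FPKM in the spermatogonia libraries and 46.7 and 28.9 FPKM in the MII libraries (log2 difference 3.43, SE 0.52, adjusted p = 0.00015). Clu, the abundant Sertoli cell secretory protein clusterin, stood at 16.3 and 9.56 FPKM in the spermatogonia libraries and 77.3 and 78.04 FPKM in the MII libraries (log2 difference 2.54, SE 0.59, adjusted p = 0.003). Aard rose by 3.02 (adjusted p = 0.00081). Sox9, Amh and Fshr, further Sertoli cell genes of the list, were not among the genes tested here. Of 9 myoid and smooth muscle markers, 4 rose, none fell and 5 were not called (median 1.71). Des, the muscle intermediate filament desmin, stood at 5.22 and 1.92 FPKM in the spermatogonia libraries and 27.4 and 19.4 FPKM in the MII libraries (log2 difference 2.5, SE 0.44, adjusted p = 0.00047), whereas Acta2, smooth muscle actin, stood at 45.4 and 20.1 FPKM in the spermatogonia libraries and 31.2 and 17.3 FPKM in the MII libraries and was not called (adjusted p = 0.64). The values of Acta2 overlapped between the fractions. Only 4 of 15 endothelial markers were tested, of which 3 rose. Cdh5, the cadherin of endothelial junctions, stood at 2.65 and 2.93 FPKM in the spermatogonia libraries and 56.4 and 43.6 FPKM in the MII libraries (log2 difference 3.74, SE 0.39, adjusted p = 1.8e-05). The Sertoli count was 5 without MII replicate 1 and also 5 without spermatogonia replicate 2, and the myoid count was 2 without spermatogonia replicate 2.

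Connective tissue genes showed the largest list median. Of 22 fibroblast and matrix genes, 21 rose and 1 fell (median 4.1), and this count of rises was 21 with any 1 of the 4 libraries left out. They made up 0.274 and 0.2298% of all FPKM in the spermatogonia libraries and 3.53 and 2.81% in the MII libraries. Dcn, the small matrix proteoglycan decorin, stood at 267 and 158 FPKM in the spermatogonia libraries and 3722 and 1879 FPKM in the MII libraries (log2 difference 3.68, SE 0.82, adjusted p = 0.0023). Bgn, its relative biglycan, stood at 24.04 and 40.2 FPKM in the spermatogonia libraries and 731 and 1299.7 FPKM in the MII libraries (log2 difference 4.92, SE 0.88, adjusted p = 0.00051). Lama2, a laminin chain of basement membranes, stood at 14.4 and 14.1 FPKM in the spermatogonia libraries and 469 and 403 FPKM in the MII libraries, so that the fractions were far apart relative to the spread within each (log2 difference 4.84, SE 0.45, adjusted p = 1.3e-05). Col6a1 and Mgp, a collagen VI chain and the calcification inhibitor matrix Gla protein, rose by 4.66 and 4.57 (adjusted p = 1.1e-05 and 0.00049). Fn1, fibronectin, went the other way and stood at 45.1 and 59.4 FPKM in the spermatogonia libraries and 14.3 and 11.9 FPKM in the MII libraries (log2 difference −1.91, SE 0.37, adjusted p = 0.00091). Its levels in MI spermatocytes, 13.4 and 7.88 FPKM, were below both spermatogonia libraries too.

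The 15 largest rises were taken over all called genes, predicted gene names aside. No overlap between the fractions and at least 5 FPKM in the MII mean were conditions. Lcn2, the iron carrier lipocalin 2, stood at 5.56 and 1.97 FPKM in the spermatogonia libraries and 229.7 and 211 FPKM in the MII libraries (log2 difference 5.65, SE 0.94, adjusted p = 0.00031). Thbd, the anticoagulant surface protein thrombomodulin, stood at 1.35 and 2.17 FPKM in the spermatogonia libraries and 158 and 102 FPKM in the MII libraries (log2 difference 5.56, SE 0.53, adjusted p = 1.3e-05). Smoc2, a matricellular protein, stood at 1.61 and 1.29 FPKM in the spermatogonia libraries and 113 and 99.3 FPKM in the MII libraries (log2 difference 5.45, SE 0.36, adjusted p = 3.4e-06). Each of these 3 genes was low in both spermatogonia libraries and abundant in both MII libraries. Gsn, the actin-severing protein gelsolin, was the most abundant of the 15 and stood at 60.3 and 24.3 FPKM in the spermatogonia libraries and 2225 and 783 FPKM in the MII libraries (log2 difference 5.07, SE 0.82, adjusted p = 0.00024). Pcolce, which enhances procollagen processing, and Ctgf, a matricellular growth factor, rose by 5.22 and 5.24 (adjusted p = 6.6e-06 and 4.6e-05). The others were Selenbp1, C1qtnf7, Cd200, Itgbl1, Fhl2, Acsbg1 and Pltp, with differences from 4.97 to 5.55, together with Insl3 and Cyp26b1.

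Immune transcripts differed by cell type between the fractions. T and NK lymphocyte markers were lower in the MII fraction: 12 of 13 tested genes fell and none rose (median −2.09). All 13 were higher in both spermatogonia libraries than in both MII libraries, against 30.6% of all genes. Their FPKM summed to 156 and 56.1 in spermatogonia and 9.997 and 11.6 in MII, where 6 and 5 of the 13 were listed at 0. Most of the MII sums came from Cd247, at 8.54 and 9.35 FPKM. Cd247 was not called (adjusted p = 0.096) and stood at 12.5 and 19.9 FPKM in MI spermatocytes. Cd3e, part of the CD3 complex of T cells (chr9:44998740-45009627, minus strand), stood at 40.8 and 12.1 FPKM in the spermatogonia libraries and 0.2002 and 0.456 FPKM in the MII libraries (log2 difference −4.14, SE 0.44, adjusted p = 1.8e-05). Gzmb, the granzyme of killer cells, stood at 14.6 and 2.88 FPKM in spermatogonia and was listed at 0 in both MII libraries (adjusted p = 0.00017). Il2rb, the receptor chain shared by interleukins 2 and 15, stood at 25.4 and 6.92 FPKM in the spermatogonia libraries and 0.212 and 0.438 FPKM in the MII libraries (log2 difference −3.46, SE 0.47, adjusted p = 7e-05). Spermatogonia replicate 1 held more of these transcripts than replicate 2, with a median gap of 1.3 on the log2 scale.

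Macrophage and antigen presentation genes gave few calls. Of 20 macrophage markers, 2 rose, 2 fell and 16 were not called (median 0.39), and their FPKM summed to 352 and 613 in spermatogonia and 695 and 862 in MII. Lyz2, lysozyme of myeloid cells, stood at 76.3 and 74.97 FPKM in the spermatogonia libraries and 78.2 and 125 FPKM in the MII libraries (adjusted p = 0.48). C1qb, a complement chain made by tissue macrophages, stood at 31.5 and 103 FPKM in the spermatogonia libraries and 66.7 and 126 FPKM in the MII libraries (adjusted p = 0.34), with the second library of each fraction the higher one. Across the 20 markers replicate 1 minus replicate 2 had a median of −1.02 in MII and −1.11 in spermatogonia on the log2 scale. Cd74, the invariant chain of MHC class II, stood at 136 and 201 FPKM in the spermatogonia libraries and 81.1 and 144 FPKM in the MII libraries (adjusted p = 0.27), and 0 of 6 class II genes were called in limma. The values of Cd74 overlapped between the fractions, and MI spermatocytes held 1.64 and 0.937 FPKM. The 2 rises in the macrophage list were Apoe, a lipoprotein gene that other cells also make (25.9 and 28.8 FPKM in the spermatogonia libraries and 347 and 196 FPKM in the MII libraries, log2 difference 3.21, SE 0.65, adjusted p = 0.0013), and Aif1, which was highest in spermatids (270.4 and 208 FPKM). The falls were Laptm5 (−1.12, adjusted p = 0.028) and Ccr2, a chemokine receptor of monocytes and T cells (19.04 and 12.8 FPKM in the spermatogonia libraries and 1.12 and 6.37 FPKM in the MII libraries, log2 difference −2.07, SE 0.45, adjusted p = 0.002). Without MII replicate 1 the fall of Laptm5 was not called (adjusted p = 0.20), nor without spermatogonia replicate 1 (0.23). Among 15 cytokines and chemokines, 6 rose and 2 fell (40% and 13.3%, against 29.8% and 17.4% of all genes). Their median of 0.35 was close to the 0.23 of all genes. Csf1, the growth factor of macrophages, rose by 3.63, and Cxcl12, a chemokine of stromal cells, by 3.15 (adjusted p = 0.00034 and 5e-05), while Ccl4, a chemokine of activated leukocytes, fell by 2.19 (adjusted p = 0.0014). Without MII replicate 1 the rises numbered 3.

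**Figure D3:**
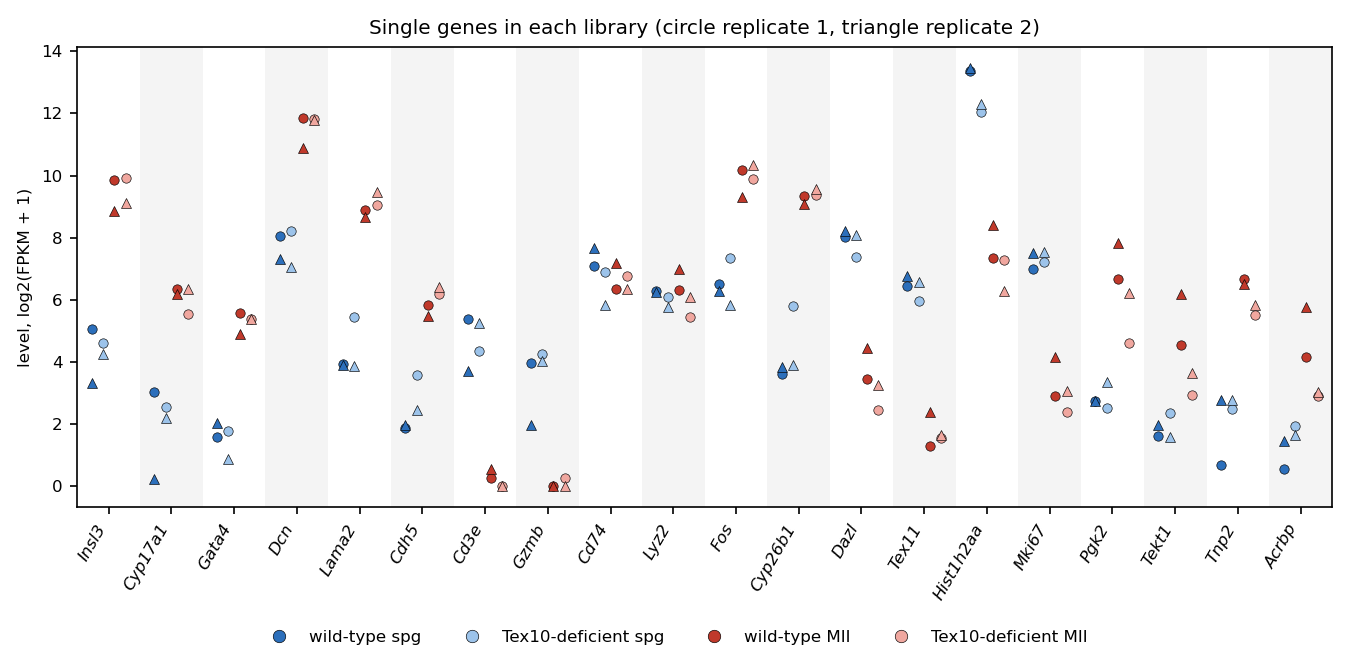
Level of 20 genes (y axis, log2(FPKM + 1)) in the spermatogonia (spg) and MII libraries of both genotypes, with 1 point per library. Insl3, Dcn and Fos are higher and Cd3e, Dazl and Hist1h2aa lower in all 4 MII libraries than in all 4 spermatogonia libraries, while Cd74 and Lyz2 overlap.

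Immediate early genes, which cells switch on within minutes of a stimulus, were much higher in the MII fraction. Of 29 tested, 23 rose and 1 fell (median 2.51), and the list made up 0.575 and 0.589% of all FPKM in spermatogonia and 4.304 and 2.56% in MII. Egr1, a zinc finger factor, stood at 265 and 307 FPKM in the spermatogonia libraries and 2879.5 and 1874 FPKM in the MII libraries (log2 difference 3.02, SE 0.66, adjusted p = 0.0021). Fos, a subunit of the AP-1 factor, stood at 90.5 and 77.6 FPKM in the spermatogonia libraries and 1166 and 631 FPKM in the MII libraries (log2 difference 3.34, SE 0.82, adjusted p = 0.0045). Both genes were several times higher in each MII library than in either spermatogonia library, and higher in MII replicate 1 than in replicate 2. Myc, Klf4 and Socs3 rose by 3.47, 3.42 and 3.67 (adjusted p = 9.1e-05, 7.5e-05 and 0.00075). Zfp36, which destabilizes cytokine mRNAs, stood at 229.7 and 284 FPKM in the spermatogonia libraries and 2589 and 1320.3 FPKM in the MII libraries (log2 difference 2.85, SE 0.75, adjusted p = 0.0069), and without MII replicate 1 its adjusted p was 0.053. The exception was Fosl1, at 7.12 and 10.6 FPKM in the spermatogonia libraries and 4.29 and 1.901 FPKM in the MII libraries (log2 difference −1.31, SE 0.40, adjusted p = 0.016), which was not called without MII replicate 2 (adjusted p = 0.15) or spermatogonia replicate 2 (0.12). The count of rises was 14 without MII replicate 1, in which the list was higher than in replicate 2 by a median of 0.83. The time that dissociation and sorting took was not given in the sources used here, and its part in these levels was not tested.

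Promoters of this list were read because its members moved together. A CArG box, the site of serum response factor (searched on both strands), lay within the 250 bases before the start of 2 of 23 genes with a RefSeq window, Egr2 and Zfp36, against 1.41% of all 10536 tested genes with a window. The cyclic AMP response element TGACGTCA was in 3 of the 23 (Dusp1, Btg2 and Maff) against 3.11% of all. The Zfp36 window is printed 5′ to 3′ in the gene's direction (chr7:28379229-28379478, minus strand, RefSeq, GRCm38.p6), with the CArG box in capitals. It begins 58 bases before the start. Egr2 was not called.
Zfp36: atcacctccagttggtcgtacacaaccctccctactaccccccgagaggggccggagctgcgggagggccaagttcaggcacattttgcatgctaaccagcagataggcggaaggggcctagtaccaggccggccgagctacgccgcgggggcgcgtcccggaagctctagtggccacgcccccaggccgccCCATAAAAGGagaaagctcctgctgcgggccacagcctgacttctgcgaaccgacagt

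Stress and interferon genes rose in part. Among 15 heat shock and unfolded protein genes, 8 rose and none fell (median 1.43). Bag3, a co-chaperone of HSP70 proteins, stood at 10.6 and 10.3 FPKM in the spermatogonia libraries and 184 and 139.9 FPKM in the MII libraries (log2 difference 3.82, SE 0.46, adjusted p = 3.1e-05), and Hspa1a, the inducible HSP70, rose by 2.7 (adjusted p = 0.0031). Hspa5, a chaperone of the endoplasmic reticulum, stood at 298 and 230.4 FPKM in the spermatogonia libraries and 406 and 373 FPKM in the MII libraries and was not called (adjusted p = 0.15). Of 15 interferon response genes, 11 rose and none fell (median 1.22). Irf1, an interferon regulatory factor, stood at 4.74 and 5.83 FPKM in the spermatogonia libraries and 42.00 and 19.6 FPKM in the MII libraries (log2 difference 2.25, SE 0.45, adjusted p = 0.0011), and Ifit2 at 0.268 and 0.297 FPKM in the spermatogonia libraries and 5.78 and 4.81 FPKM in the MII libraries (log2 difference 2.29, SE 0.28, adjusted p = 3.4e-05). The heat shock count was 5 without MII replicate 1 or without spermatogonia replicate 2, and the interferon count was 7 without spermatogonia replicate 1 and 6 with a pseudocount of 0.1.

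Retinoic acid, which drives spermatogonia to differentiate and enter meiosis, is made by retinal dehydrogenases and broken down by CYP26 enzymes. Genes of both steps were higher in the MII fraction, and 6 of 13 genes of the list rose while 2 fell (median 0.93). Cyp26b1, which degrades retinoic acid and protects germ cells from it (chr6:84571414-84593908, minus strand), stood at 11.2 and 13.3 FPKM in the spermatogonia libraries and 648 and 543 FPKM in the MII libraries (log2 difference 5.49, SE 0.70, adjusted p = 4.9e-05). Its mean was 48.5 times higher in MII, and the MI libraries held 46.9 and 19.6 FPKM. Aldh1a1, a retinal dehydrogenase of somatic testis cells, stood at 37.1 and 11.1 FPKM in the spermatogonia libraries and 787 and 488 FPKM in the MII libraries (log2 difference 4.85, SE 0.80, adjusted p = 0.00028). Aldh1a3, another such enzyme, stood at 1.17 and 2.66 FPKM in the spermatogonia libraries and 32.6 and 33.8 FPKM in the MII libraries (log2 difference 3.6, SE 0.34, adjusted p = 1.3e-05). Rdh11, a retinol dehydrogenase, rose by 2.75 (adjusted p = 0.00013) and was highest in spermatids, at 72.4 and 77.2 FPKM. Rbp4, the retinol carrier of plasma, fell, standing at 10.9 and 14.2 FPKM in the spermatogonia libraries and 0 and 0.4303 FPKM in the MII libraries (log2 difference −3.49, SE 0.31, adjusted p = 1.1e-05). Stra8, the retinoic acid target that starts meiosis, was picked after its values were seen and stood at 17.96 and 13.00 FPKM in the spermatogonia libraries and 1.11 and 1.81 FPKM in the MII libraries (log2 difference −2.74, SE 0.32, adjusted p = 3e-05). The enzymes and this target thus differed in opposite directions between the fractions.

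Most ligands of testis signalling were higher in the MII fraction. Of 15 ligands, 12 rose and 1 fell (median 3.15), and their FPKM summed to 181 and 172 in spermatogonia and 2194 and 1619 in MII. Kitl, stem cell factor, which Sertoli cells present to spermatogonia, stood at 4.301 and 3.45 FPKM in the spermatogonia libraries and 53.7 and 36.8 FPKM in the MII libraries (log2 difference 3.23, SE 0.51, adjusted p = 0.00021). Its receptor gene Kit, a mark of differentiating spermatogonia, stood at 31.4 and 34.2 FPKM in the spermatogonia libraries and 8.65 and 10.3 FPKM in the MII libraries (log2 difference −1.7, SE 0.36, adjusted p = 0.0016), so that ligand and receptor were high in opposite fractions. Igf1, insulin-like growth factor 1, stood at 50.4 and 51.7 FPKM in the spermatogonia libraries and 551 and 637 FPKM in the MII libraries (log2 difference 3.51, SE 0.57, adjusted p = 0.00025), whereas its receptor gene Igf1r stood at 14.00 and 15.2 FPKM in the spermatogonia libraries and 20.4 and 21.1 FPKM in the MII libraries and was not called (adjusted p = 0.21). Igf2 rose by 2.46 (adjusted p = 0.0011). Inhba, the beta A subunit of activin and inhibin, Bmp4, Wnt5a and Fgf2 rose by 2.99, 3.64, 3.23 and 3.4 (adjusted p = 6.5e-05, 0.00069, 1.3e-05 and 0.0027), and Fgf2 was not called with a pseudocount of 0.1 (adjusted p = 0.058). Vegfa rose by 1.95 (adjusted p = 0.00055). The called rise of Inha rested on several libraries, with an adjusted p of 0.061 and 0.16 without MII replicate 1 and 2 and 0.45 without spermatogonia replicate 2. Pdgfa, a platelet-derived growth factor, fell, at 7.62 and 10.8 FPKM in the spermatogonia libraries and 0.641 and 0.866 FPKM in the MII libraries (log2 difference −2.53, SE 0.39, adjusted p = 0.00016), and its receptor gene Pdgfra, of fibroblasts and Leydig precursors, rose, at 12.6 and 9.76 FPKM in the spermatogonia libraries and 252 and 197 FPKM in the MII libraries (log2 difference 4.21, SE 0.55, adjusted p = 5.4e-05). Jag1 and Tgfb1 were not called (adjusted p = 0.48 and 0.41).

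Of 25 receptors, 12 rose and 5 fell (median 0.53). Lhcgr, the luteinizing hormone receptor of Leydig cells, stood at 2.04 and 1.204 FPKM in the spermatogonia libraries and 10.8 and 23.3 FPKM in the MII libraries (log2 difference 2.71, SE 0.54, adjusted p = 0.0012). Esr1, an estrogen receptor, stood at 1.19 and 0.584 FPKM in the spermatogonia libraries and 12.7 and 12.8 FPKM in the MII libraries (log2 difference 2.89, SE 0.35, adjusted p = 3.3e-05). Ptch1, a receptor of the hedgehog ligand that Sertoli cells send to Leydig cells, rose by 3.58 (adjusted p = 6.6e-05). Fgf receptors split: Fgfr1 and Fgfr2 rose by 2.27 and 2.75, while Fgfr3, a receptor of spermatogonia, fell by 2.86 (adjusted p = 0.00081, 1.6e-05 and 2.3e-05). Pdgfrb and Tgfbr2 rose by 2.36 and 2.56, and Tgfbr1 fell by 1.8 (adjusted p = 0.00067, 0.00098 and 0.00042). The genes of both subunits of the TGF-beta receptor thus differed in opposite directions. The falls also included Acvr2b and Gfra1, the receptor of the stem cell factor GDNF, at 4.59 and 2.13 FPKM in the spermatogonia libraries and 0.492 and 0.964 FPKM in the MII libraries (log2 difference −1.29, SE 0.50, adjusted p = 0.046). Gfra1 was not called without MII replicate 1 or 2 (adjusted p = 0.18 and 0.071) or spermatogonia replicate 1 (0.27), nor Acvr2b without spermatogonia replicate 2 (0.057). Nr3c1, the glucocorticoid receptor, and Amhr2 were called as rises (adjusted p = 0.026 and 0.047). Neither call held without MII replicate 1 (0.18 and 0.19) or spermatogonia replicate 1 (0.19 and 0.29), and that of Amhr2 did not hold without MII replicate 2 (0.063). Cxcr4, a chemokine receptor, passed without spermatogonia replicate 2 (0.0024). The 8 that were not called were Csf1r, Acvr2a, Rxfp2, Igf1r, Igf2r, Cxcr4, Bmpr1a and Fzd4, with adjusted p from 0.087 to 0.95. Rxfp2, the receptor of INSL3, was listed at 0 in both spermatogonia libraries.

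Genes of spermatogonia were mostly lower in the MII fraction. Of 15 genes of differentiating spermatogonia, 12 fell in the MII fraction and 1 rose (median −2.74). Dazl, an RNA-binding protein of the germ line (chr17:50279395-50293636, minus strand), stood at 260.00 and 293 FPKM in the spermatogonia libraries and 9.99 and 20.9 FPKM in the MII libraries (log2 difference −4.16, SE 0.43, adjusted p = 1.7e-05). Crabp1, a retinoic acid binding protein, stood at 169 and 104 FPKM in the spermatogonia libraries and 15.1 and 12.6 FPKM in the MII libraries (log2 difference −3.18, SE 0.51, adjusted p = 0.00025). Elavl2, Prss50 and the X-linked Esx1 fell by 4.15, 3.51 and 3.46 (adjusted p = 1.4e-05, 7.7e-05 and 4.6e-05). Dmrt1, a transcription factor that holds spermatogonia in mitosis, chosen with its values known, stood at 57.3 and 50.9 FPKM in the spermatogonia libraries and 3.08 and 5.48 FPKM in the MII libraries (log2 difference −3.42, SE 0.38, adjusted p = 2.2e-05). The 1 rise was Ccnd2, cyclin D2, at 9.97 and 5.99 FPKM in the spermatogonia libraries and 26.9 and 26.5 FPKM in the MII libraries (log2 difference 1.66, SE 0.34, adjusted p = 0.0013), a gene that somatic cells also express. Undifferentiated spermatogonia genes were less clear: 4 of 10 fell and 2 rose (median −0.58), and 2 fell without MII replicate 1 or without spermatogonia replicate 1. Taf4b, a transcription factor subunit of germ line stem cells, stood at 35.5 and 42.2 FPKM in the spermatogonia libraries and 3.96 and 5.43 FPKM in the MII libraries (log2 difference −2.81, SE 0.31, adjusted p = 2.3e-05), and Sall4 fell by 1.61 (adjusted p = 0.0014). Epcam, an adhesion molecule used to sort spermatogonia, stood at 81.8 and 87.6 FPKM in the spermatogonia libraries and 1.32 and 7.77 FPKM in the MII libraries (log2 difference −4.25, SE 0.45, adjusted p = 1.8e-05).

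DNA replication genes were lower almost throughout. Of 31 S phase genes, 29 fell and none rose (median −2.03), and their FPKM summed to 847 and 891 in spermatogonia and 160.1 and 225 in MII. Ccne2, cyclin E2, stood at 40.8 and 62.6 FPKM in the spermatogonia libraries and 1.41 and 2.48 FPKM in the MII libraries (log2 difference −4.15, SE 0.35, adjusted p = 1.1e-05). Mcm2, a subunit of the replicative helicase, stood at 60.1 and 45.99 FPKM in the spermatogonia libraries and 3.14 and 7.29 FPKM in the MII libraries (log2 difference −3.19, SE 0.37, adjusted p = 2.7e-05). Pole, a replicative polymerase, and Rrm2, of ribonucleotide reductase, fell by 3.03 and 3.01 (adjusted p = 1.3e-05 and 3.1e-05). Pcna, the polymerase clamp, kept more of its level, at 159 and 184 FPKM in the spermatogonia libraries and 57.4 and 61.4 FPKM in the MII libraries (log2 difference −1.51, SE 0.25, adjusted p = 0.00025). No overlap between the fractions was a condition for naming Ccne2, Mcm2, Pole and Rrm2. Pcna, named for its abundance, did not overlap either, as was so for 30.6% of all genes in this direction.

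The E2F site TTTCGCGC or TTTGGCGC, on either strand, lay within 250 bases before the start of 5 of 24 S phase genes with a window (20.8%), against 1.46% of all 10536. These were Mcm5, Mcm6, Pola1, Rfc3 and Uhrf1, of which Pola1 was not called. A helicase subunit pair is printed with the sites in capitals, where 12 capitals in a row are a site on each strand that overlap, Mcm5 from chr8:75109259-75109508 on the plus strand and Mcm6 from chr1:128359706-128359955 on the minus strand, both 5′ to 3′ in the gene's direction.
Mcm5: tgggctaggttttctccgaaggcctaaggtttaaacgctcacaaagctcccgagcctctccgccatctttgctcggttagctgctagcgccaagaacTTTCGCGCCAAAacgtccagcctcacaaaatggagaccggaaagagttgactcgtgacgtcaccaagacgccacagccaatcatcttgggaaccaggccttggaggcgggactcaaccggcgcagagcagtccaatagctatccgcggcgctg
Mcm6: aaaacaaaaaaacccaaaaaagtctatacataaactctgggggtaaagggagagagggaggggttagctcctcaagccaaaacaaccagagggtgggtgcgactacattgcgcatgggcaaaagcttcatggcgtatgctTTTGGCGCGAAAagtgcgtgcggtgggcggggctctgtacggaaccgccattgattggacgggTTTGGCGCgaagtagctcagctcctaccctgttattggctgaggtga
Both genes were chosen for their promoters after their values were seen. Mcm5, with overlapping sites that began 153 and 149 bases before its start, stood at 13.6 and 13.9 FPKM in the spermatogonia libraries and 0.95 and 1.86 FPKM in the MII libraries (log2 difference −2.64, SE 0.34, adjusted p = 4.9e-05), and Mcm6, with overlapping sites at 110 and 106 bases and another at 47, at 44.2 and 44.5 FPKM in the spermatogonia libraries and 9.93 and 10.3 FPKM in the MII libraries (log2 difference −2.03, SE 0.30, adjusted p = 0.00014).

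Histone genes made the deepest falls. Of 49 tested genes with a Hist symbol, 34 fell and 3 rose (median −2.77), and the list went from 8.52 and 8.62% of all FPKM in the spermatogonia libraries to 0.451 and 0.472% in MII. This share rests mostly on 1 gene: Hist1h2aa held 10547 and 11318 of the 16772 and 17200 FPKM summed over the list in spermatogonia. Canonical histone mRNAs normally end in a stem-loop without a polyA tail, and these libraries were polyA-enriched, so the values cover only transcripts that this step retained. Many histone genes are near-identical copies, and the handling of shared reads was not given in the sources used here. Hist1h2aa encodes the testis-specific H2A variant TH2A and lies at chr13:23934462-23934851, plus strand. It stood at 10547 and 11318 FPKM in the spermatogonia libraries and 162 and 338 FPKM in the MII libraries, 43.7 times lower in the mean (log2 difference −5.54, SE 0.51, adjusted p = 1.3e-05). It was the largest fall of any named gene, and MI spermatocytes and spermatids held 1394 and 683 and 13.7 and 20.3 FPKM. Its neighbour Hist1h2ba, the testis-specific H2B variant TH2B, stood at 80.3 and 47.5 FPKM in the spermatogonia libraries and 7.24 and 5.69 FPKM in the MII libraries (log2 difference −3.08, SE 0.56, adjusted p = 0.00054). Hist1h1a, a linker histone of dividing cells, stood at 523 and 366 FPKM in the spermatogonia libraries and 27.8 and 34.5 FPKM in the MII libraries (log2 difference −3.78, SE 0.44, adjusted p = 2.9e-05). Hist1h2ai and Hist1h2bm, of the same chromosome 13 cluster, stood at 904 and 1016 and at 779 and 813 FPKM in spermatogonia and at 27.7 and 34.9 and at 32.7 and 44.3 FPKM in MII (differences −4.9 and −4.35, adjusted p = 8.8e-05 and 2.7e-05). With a pseudocount of 0.1, 22 of the Hist genes fell. H1fnt, the spermatid linker histone, rose to 34.5 and 47.98 FPKM from 1.99 and 1.95 (log2 difference 3.81, SE 0.53, adjusted p = 8.4e-05).

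The CCAAT box CCAAT, on either strand, lay within 250 bases before the start of 37 of 44 Hist genes with a window (84.1%), against 40.5% of all 10536. The letters are printed for 3 of the deepest falls, 5′ to 3′ on the plus strand with each box in capitals (ATTGG is the box on the other strand), from chr13:23934187-23934436, chr13:21716162-21716411 and chr13:21721794-21722043.
Hist1h2aa: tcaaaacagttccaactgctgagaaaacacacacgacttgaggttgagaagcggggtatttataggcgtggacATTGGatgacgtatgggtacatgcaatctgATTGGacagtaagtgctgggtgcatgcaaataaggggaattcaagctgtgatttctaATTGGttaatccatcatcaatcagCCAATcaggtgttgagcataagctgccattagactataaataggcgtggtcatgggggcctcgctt
Hist1h2ai: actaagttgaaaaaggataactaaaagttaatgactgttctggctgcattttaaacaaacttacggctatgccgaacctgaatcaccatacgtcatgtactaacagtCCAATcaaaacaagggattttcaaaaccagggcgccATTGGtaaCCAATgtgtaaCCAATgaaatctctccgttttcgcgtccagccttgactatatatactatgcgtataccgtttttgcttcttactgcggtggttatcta
Hist1h2bm: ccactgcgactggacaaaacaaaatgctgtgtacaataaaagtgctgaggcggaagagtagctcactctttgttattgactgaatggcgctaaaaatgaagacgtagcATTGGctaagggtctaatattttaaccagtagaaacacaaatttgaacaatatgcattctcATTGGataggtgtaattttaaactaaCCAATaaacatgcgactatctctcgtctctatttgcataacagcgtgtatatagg
Hist1h2aa had 4 boxes, which began 177, 147, 90 and 66 bases before its start, and its window overlaps that of Hist1h2ba on the other strand. The other 2 windows had 4 and 3.

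Cell division genes were lower in the MII fraction too. Of 30 M phase and spindle genes, 23 fell and none rose (median −1.57), and 14 fell without MII replicate 1. Mki67, the proliferation antigen Ki-67, stood at 126 and 179.9 FPKM in the spermatogonia libraries and 6.55 and 16.7 FPKM in the MII libraries (log2 difference −3.72, SE 0.37, adjusted p = 1.5e-05). Ccna2, cyclin A2, stood at 76.99 and 97.6 FPKM in the spermatogonia libraries and 2.42 and 6.75 FPKM in the MII libraries (log2 difference −4.09, SE 0.47, adjusted p = 2.7e-05). Top2a, topoisomerase II, stood at 136 and 171 FPKM in the spermatogonia libraries and 14.2 and 51.6 FPKM in the MII libraries (log2 difference −2.44, SE 0.50, adjusted p = 0.0014), with MII replicate 2 well above replicate 1 and below both spermatogonia libraries. Genes of the meiotic divisions were mixed, with 6 of 14 lower and 2 higher (median −0.47). Ccna1, the cyclin A of male meiosis, stood at 1.84 and 0.883 FPKM in the spermatogonia libraries and 8.42 and 30.2 FPKM in the MII libraries (log2 difference 2.89, SE 0.49, adjusted p = 0.00033), and MI spermatocytes and spermatids held 77.6 and 63.4 and 195 and 138 FPKM. Hspa2, the HSP70 of spermatocytes needed for the first division, stood at 18.2 and 21.1 FPKM in the spermatogonia libraries and 56.2 and 164 FPKM in the MII libraries (log2 difference 2.24, SE 0.45, adjusted p = 0.0012), and at 645 and 659 FPKM in MI. Nek2, a kinase of division, overlapped, at 17.9 and 22.3 FPKM in the spermatogonia libraries and 13.3 and 45.1 FPKM in the MII libraries (adjusted p = 0.69). The cyclin Ccnb3 and the kinase Plk4 fell by 2.23 and 2.04 (adjusted p = 0.00081 and 0.0011).

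Meiotic prophase genes were higher in the spermatogonia fraction. Of 31, 24 fell in MII and none rose (median −1.75). Tex11, an X-linked gene of recombination, stood at 85.2 and 108 FPKM in the spermatogonia libraries and 1.43 and 4.19 FPKM in the MII libraries (log2 difference −4.77, SE 0.44, adjusted p = 1.3e-05). Prdm9, which places recombination hotspots, stood at 10.9 and 17.6 FPKM in the spermatogonia libraries and 0.3301 and 0.913 FPKM in the MII libraries (log2 difference −3.22, SE 0.40, adjusted p = 4.1e-05). Sycp3, of the synaptonemal complex, stood at 128 and 140.02 FPKM in the spermatogonia libraries and 19.9 and 47.3 FPKM in the MII libraries (log2 difference −2.08, SE 0.44, adjusted p = 0.0016), and at 372 and 240.00 FPKM in MI. Of the 31 genes, 13 were highest in spermatogonia, 11 in MI spermatocytes and 7 in spermatids. Among 21 genes of the piRNA pathway, which silences transposons, 11 fell and 3 rose (median −1.05). Mov10l1, the helicase that starts piRNA processing, stood at 71.2 and 76.2 FPKM in the spermatogonia libraries and 6.51 and 16.6 FPKM in the MII libraries (log2 difference −2.7, SE 0.35, adjusted p = 5.1e-05). Tdrd6, a tudor protein of late spermatocytes and spermatids, rose, at 1.48 and 4.35 FPKM in the spermatogonia libraries and 21.2 and 97.6 FPKM in the MII libraries (log2 difference 3.68, SE 0.57, adjusted p = 0.00017). Mael did not separate the fractions, at 246 and 225 FPKM in the spermatogonia libraries and 132 and 408 FPKM in the MII libraries (adjusted p = 0.98), with the 2 MII libraries on either side of both spermatogonia libraries.

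Genes of later germ cells were higher in the MII fraction. Of 25 late spermatocyte genes 16 rose, of 33 round spermatid and acrosome genes 30, of 31 elongating spermatid genes 25 and of 32 axoneme genes 30, with medians of 2.35, 2.4, 3.07 and 2.53. The 1 fall among these 4 lists was Tex101, a surface protein of germ cells, at 99.9 and 86.3 FPKM in the spermatogonia libraries and 4.51 and 7.01 FPKM in the MII libraries (log2 difference −3.82, SE 0.44, adjusted p = 2.7e-05). Acrbp, of the acrosome, stood at 0.454 and 1.74 FPKM in the spermatogonia libraries and 17.00 and 54.04 FPKM in the MII libraries (log2 difference 3.98, SE 0.44, adjusted p = 2.2e-05), and Catsper4, a sperm calcium channel subunit, at 0.116 and 0.121 FPKM in the spermatogonia libraries and 7.66 and 33.1 FPKM in the MII libraries (log2 difference 3.94, SE 0.54, adjusted p = 8e-05). Tnp1 and Tnp2, the transition proteins that replace histones, stood at 152 and 115 and at 102 and 90.2 FPKM in MII against 6.19 and 10.5 and 0.589 and 5.904 in spermatogonia (differences 3.88 and 4.87, adjusted p = 1e-05 and 1.7e-05). Prm2, protamine 2, stood at 10.6 and 27.7 FPKM in the spermatogonia libraries and 220.02 and 185 FPKM in the MII libraries (log2 difference 3.48, SE 0.62, adjusted p = 0.0005). These 3 genes of elongating spermatids were higher in MII replicate 1 than in replicate 2, the reverse of the order for Acrbp and Catsper4. Tekt1, a tektin of flagellar microtubules, stood at 2.05 and 2.94 FPKM in the spermatogonia libraries and 22.5 and 72.6 FPKM in the MII libraries (log2 difference 3.59, SE 0.46, adjusted p = 5e-05), and Dnah8, an axonemal dynein, at 6.63 and 8.08 FPKM in the spermatogonia libraries and 30.5 and 119.5 FPKM in the MII libraries (log2 difference 2.89, SE 0.54, adjusted p = 0.00069). Spermatids held more of all 7, for example 2592 and 3301 FPKM of Tnp1 and 306 and 442 of Tekt1. MI spermatocytes held less Tnp1, at 14.9 and 12.3 FPKM, and more Tekt1, at 154 and 152. The response element TGACGTCA was in 0 of 28 windows of the elongating spermatid genes, and the NR5A1 site AAGGTCA in 0 of 9 of the Leydig genes, against 3.11% and 3.74% of all genes.

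Enzymes of glycolysis and energy supply exist as somatic forms and as germ cell forms that take over in late spermatocytes and spermatids, and both sets were higher in the MII fraction. Of 15 germ cell forms 12 rose and none fell (median 3.13), and of 15 somatic forms 9 rose and none fell (median 1.04). Ldhc, lactate dehydrogenase C of sperm, stood at 11.6 and 15.9 FPKM in the spermatogonia libraries and 111 and 337 FPKM in the MII libraries (log2 difference 3.74, SE 0.49, adjusted p = 6.1e-05). The somatic Ldha stood at 7.28 and 6.09 FPKM in the spermatogonia libraries and 55.6 and 78.1 FPKM in the MII libraries (log2 difference 3.13, SE 0.30, adjusted p = 1.4e-05) and Ldhb at 2.23 and 1.52 FPKM in the spermatogonia libraries and 47.6 and 27.3 FPKM in the MII libraries (log2 difference 3.7, SE 0.68, adjusted p = 0.00062). Per transcript length, Ldhc therefore led Ldha in both MII libraries, and in spermatogonia too. Pgk2, the phosphoglycerate kinase of germ cells, stood at 5.72 and 5.76 FPKM in the spermatogonia libraries and 101.05 and 224 FPKM in the MII libraries (log2 difference 4.49, SE 0.47, adjusted p = 1.8e-05), while the X-linked somatic Pgk1 stood at 4.33 and 2.27 FPKM in the spermatogonia libraries and 6.84 and 3.62 FPKM in the MII libraries (adjusted p = 0.31). Pdha1, an X-linked gene of pyruvate oxidation, rose, at 5.62 and 4.67 FPKM in the spermatogonia libraries and 39.9 and 31.3 FPKM in the MII libraries (log2 difference 2.57, SE 0.48, adjusted p = 0.00074), and the germ cell form Pdha2 overlapped, at 4.94 and 3.65 FPKM in the spermatogonia libraries and 3.19 and 8.58 FPKM in the MII libraries (adjusted p = 0.64). Gapdhs, the sperm form, rose by 3.13 (adjusted p = 0.00011), and the somatic Gapdh stood at 63.7 and 41.7 FPKM in the spermatogonia libraries and 55.4 and 30.02 FPKM in the MII libraries and was not called (adjusted p = 0.54). Of the aldolases, Aldoart1, Aldoart2 and the somatic Aldoa rose by 2.89, 2.55 and 2.65 (adjusted p = 0.004, 0.00094 and 0.00027). The lists also hold carriers, which are among the members counted above. Of the sugar transporters of the germ cell list, Slc2a3 stood at 9.65 and 11.5 FPKM in the spermatogonia libraries and 42.6 and 146 FPKM in the MII libraries (log2 difference 2.79, SE 0.49, adjusted p = 0.00047). Slc2a5, which carries fructose, stood at 0.402 and 0.548 FPKM in the spermatogonia libraries and 10.8 and 46.6 FPKM in the MII libraries (log2 difference 4.01, SE 0.57, adjusted p = 9.7e-05). Slc2a1, of the somatic list, stood at 4.97 and 5.27 FPKM in the spermatogonia libraries and 6.42 and 2.12 FPKM in the MII libraries (adjusted p = 0.53). Of the monocarboxylate carriers, Slc16a7 of the germ cell list rose by 3.23 (adjusted p = 0.00046), and Slc16a1 of the somatic list differed by 0.03 (adjusted p = 0.95). Further rises were Hk1, Hk2, Tpi1, Pgam2, Ldhal6b, Gk2 and Ak1, from 1.81 to 3.61. Eno1 and Pgam1 were called at adjusted p = 0.011 and 0.047. Eno1 was not called without MII replicate 2 (0.068) or spermatogonia replicate 2 (0.084), and Pgam1 without MII replicate 1 (0.30) or spermatogonia replicate 2 (0.27). Eno4, Cyct, Cycs and Gpi1 were not called (adjusted p from 0.27 to 0.73), and Eno4 passed without MII replicate 1 (0.015).

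Genes of ribosomal proteins, oxidative phosphorylation and the proteasome gave few calls. Of 82 cytosolic ribosomal protein genes, 4 rose and 1 fell (median −0.13). Rps4x, an X-linked gene of the small subunit, stood at 13.6 and 9.14 FPKM in the spermatogonia libraries and 95.01 and 70.6 FPKM in the MII libraries (log2 difference 2.77, SE 0.47, adjusted p = 0.00035), and was the largest change of the 82. Rpl10, also X-linked, stood at 80.1 and 68.5 FPKM in the spermatogonia libraries and 291 and 169 FPKM in the MII libraries (log2 difference 1.57, SE 0.55, adjusted p = 0.032), and its call was lost without MII replicate 1 (adjusted p = 0.18) or spermatogonia replicate 1 or 2 (0.082 and 0.13). With MII replicate 1 or either spermatogonia library left out, the rises numbered 2, 1 and 1, and under quantile normalization 1 rose and 23 fell. Nuclear genes of oxidative phosphorylation gave 1 rise and 5 falls of 33, and proteasome subunits 1 and 5 of 32, both with a median of −0.40. The 5 falls became 1 and 1 without MII replicate 1, 1 and 2 without spermatogonia replicate 1, 1 and 3 without spermatogonia replicate 2, and 17 and 15 under quantile normalization. Apoptosis genes went both ways, with 4 rises and 4 falls of 19 (21.1% each, against 29.8% and 17.4% of all genes). Bak1, which promotes apoptosis, rose by 1.91 (adjusted p = 0.00036). Bcl2, which blocks it, rose by 1.51, and Bid and Tnfrsf10b, which promote it as Bak1 does, fell by 2.32 and 2.19 (adjusted p = 0.00078, 9.3e-05 and 0.00017). Bcl2l2 (1.17, adjusted p = 0.011) and Mcl1 were the other rises, and Apaf1 was also among the falls (−0.99, adjusted p = 0.012). Of 503 X-linked genes 172 rose (34.2%) and 91 fell (18.1%), against 29.6% and 17.3% of autosomal genes. Rises on chromosomes 1, 3 and 15 made up similar shares, 33.7, 34.2 and 34.1%. The X-linked median was 0.54, against 0.22 for autosomal genes, and 0.46 without spermatogonia replicate 1. In cholesterol synthesis, 2 of 20 genes rose and 2 fell, and 1 rose without either of the MII libraries and 0 without spermatogonia replicate 2.

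The 2 MII libraries differed from each other more than the 2 spermatogonia libraries did. The log2 gap between replicates had an SD over genes of 0.77 in MII and 0.54 in spermatogonia, and 2439 and 891 genes were over 1 log2 unit apart. Replicate 1 minus replicate 2 of MII had a median of −1.75 for axoneme genes, −1.67 for late spermatocyte genes, −1.61 for round spermatid genes and −1.45 for M phase genes. For elongating spermatid genes it was −0.67. For fibroblast, Leydig and immediate early genes it was 0.23, 0.31 and 0.83. Summed FPKM of the axoneme list were 253 and 949 in the MII libraries, against 43.6 and 59.05 in spermatogonia. Even the lower MII library was thus above both spermatogonia libraries, and 32 of 32 axoneme genes did not overlap between the fractions in this direction, against 43.1% of all genes.

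The comparison was repeated in the Tex10-deficient libraries. Its differences share no sample with those of the wild type. Both contrasts use the same estimate of spread for each gene, so their calls are not independent. Tex10 itself, which encodes a nuclear protein with a role in making ribosomes, stood at 55.4 and 50.02 FPKM in the spermatogonia libraries and 13.8 and 27.4 FPKM in the MII libraries in the wild type (log2 difference −1.39, SE 0.31, adjusted p = 0.0023), and at 13.6 and 18.96 FPKM in spermatogonia and 8.11 and 7.29 in MII of the Tex10-deficient mice. All 4 of those values were below those of the same fraction in the wild type, MII replicate 1 included. In the labels, 6 of these 8 libraries carry a cell type entry that differs from their title, and titles were followed. There 5551 genes were called (42.4% of those tested), 3305 higher (25.2%) and 2246 lower (17.1%). Of the wild-type rises 2668 were also called as rises there, 68.3% of the wild-type and 80.7% of the Tex10-deficient rises. Of the falls 1672 were shared, 73.6% and 74.4%. In opposite directions, 3 genes were higher in the wild type and lower in the Tex10-deficient libraries, and 3 the reverse.

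The Leydig and fibroblast lists had medians close to those of the wild type. Leydig genes rose in 12 of 13, fibroblast and matrix genes in 21 of 22 (medians 3.37 and 4.21), and Insl3 stood at 23.3 and 18.04 FPKM in spermatogonia and 979 and 555 in MII. T and NK lymphocyte markers fell in 13 of 13 (median −3.53, against −2.09 in the wild type), and Cd3e stood at 19.6 and 37.04 FPKM in spermatogonia and was listed at 0 in both MII libraries. S phase genes fell in 29 of 31 (median −2.2). Macrophage markers again gave few calls, 2 rises and 3 falls of 20, with a median of −0.24 against 0.39 in the wild type. Ribosomal protein genes rose in 24 of 82 (median 0.54), a share near the 25.2% of all genes. Their FPKM summed to 8180.2 and 6605 in spermatogonia and 18182 and 10007 in MII there, with MII replicate 1 standing apart.

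Later germ cell genes gave fewer calls in the Tex10-deficient libraries. Rises numbered 4 of 25 for late spermatocyte genes, 15 of 33 for round spermatid genes, 21 of 31 for elongating spermatid genes and 5 of 32 for axoneme genes, with medians of 0.43, 1.07, 2.0 and 0.51. Of all genes, 25.2% were called as rises there, with a median of 0.17. The late spermatocyte and axoneme shares lay below that, and the round and elongating spermatid shares above it. Ldhc stood at 22.5 and 37.1 FPKM in spermatogonia and 55.9 and 91.1 in MII of the Tex10-deficient mice (log2 difference 1.28, adjusted p = 0.052). Tekt1 stood at 4.097 and 1.97 and 6.59 and 11.6 FPKM (log2 difference 1.33, adjusted p = 0.032). The difference between genotypes in the fraction contrast was tested in limma over all genes. None was called (smallest adjusted p = 0.176), and 1255 had an unadjusted p under 0.05, 343 with a higher and 912 with a lower contrast in the Tex10-deficient libraries. For Ldhc and Tekt1 this difference was −2.46 and −2.26 (adjusted p = 0.28 and 0.28). The test depended on 1 library: without wild-type MII replicate 1, the one with fewer late germ cell transcripts, 670 genes were called, 653 of them lower in the Tex10-deficient libraries. In that fit the median difference between genotypes was −2.88 for axoneme, −3.11 for late spermatocyte and −1.75 for M phase genes, against −0.05 over all genes. For round and elongating spermatid genes it was −2.02 and −1.01, and for Leydig, fibroblast and immediate early genes −0.23, 0.18 and 0.27. The library left out was itself lower than MII replicate 2 in the late germ cell and M phase lists. Counts without any other library were at most 9.

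**Figure D4:**
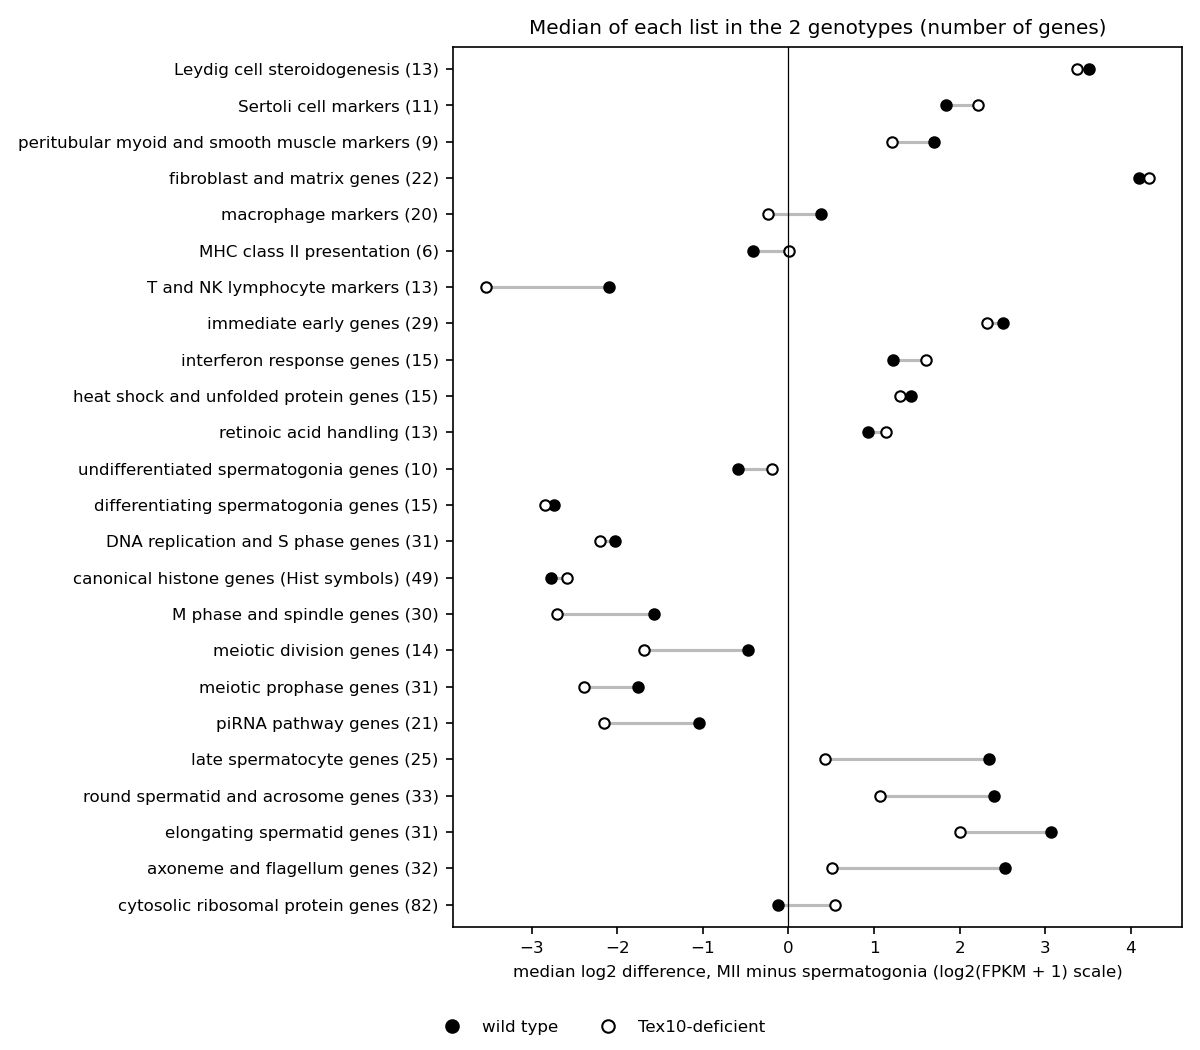
Median log2 difference between the MII and spermatogonia fractions (x axis, log2(FPKM + 1) scale) for 24 gene lists, in the wild type (filled) and the Tex10-deficient libraries (open). Leydig, fibroblast, immediate early and S phase lists nearly coincide, and late spermatocyte (2.35 and 0.43) and axoneme lists (2.53 and 0.51) are further apart.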

How the data were processed

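RNA of sorted testis cells was measured by polyA-enriched RNA-seq in 16 libraries, 2 in each of 8 groups, per the labels. The deposited values were read as the authors' FPKM with 1 added, which no label states: the smallest value is 1, and the number of decimals changes at 11 and 101. After 1 was subtracted here, 3.33% of values were 0, and the FPKM, zeros and folds of low genes rest on this reading. The submitters' processing notes name STAR 2.7.6a, Cufflinks 2.2.1 and the build mm10, with Trim Galore 0.6.3, cutadapt and FastQC 0.10.1. FPKM carry no read counts, so depth is unknown and no counting interval is given.

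Of 13101 genes, 1 with a letter in place of a value was left out, and 13099 that reached 1 FPKM in 2 libraries or more entered the test. One limma 3.58.1 model (R 4.3.3, eBayes with trend, 8 residual degrees of freedom) was fitted to log2(FPKM + 1) over all 16 libraries, which share 1 estimate of the spread. Its contrasts were MII minus spermatogonia in each genotype and the difference of both. P-values were adjusted by Benjamini-Hochberg over all genes and called under 0.05. A fold on this scale understates the change of low genes. The labels do not say that libraries of a group come from separate animals, so p-values measure only the spread between these samples. On simulated data with 13099 genes, 200 of them changed, 73% of log2 changes of 2 and 11% of log2 changes of 1 were recovered, and 6 of 90 calls were false. In the real contrast 6178 genes were called, and the adjusted p depends on that number, so these rates do not carry over to it.

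Named genes were, for each list, up to 4 called members per direction with the largest differences, no overlap between fractions and a higher mean of 5 FPKM or above, plus the 3 most abundant members. The 15 largest rises and falls, all members of the isoenzyme and signalling lists, members called against their list's median, the smallest p-values for the genotype difference and Tex10 were also eligible, and a few of these genes are not reported here. Members and lists were chosen with earlier results of these data known. Positions are from GENCODE M21 (12572 genes matched to 1 position), and promoter windows of 250 bases from RefSeq. Other pseudocounts, filters, scalings, sample sets and left-out libraries were tried. Python 3.11.15, pandas 2.3.3, numpy 2.4.6 and matplotlib 3.10.9 were used.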

Additional observations from a re-analysis of the deposited data

How the results depend on the processing

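Fits with another pseudocount, filter, scaling, spread model or set of libraries kept the counts of wild-type calls within 1.5 times, with 3 exceptions. Quantile normalization gave 3896 lower genes and leaving out spermatogonia replicate 2 gave 1468, against 2273. Grouping the Tex10-deficient libraries by the cell type field left the wild-type differences as they were and changed only the shared spread, with 88 genes called, 86 higher and 2 lower, and 6 gene lists with more rises than falls (20 of 37 by titles). Leaving out 1 library gave 4519 to 5183 wild-type calls, 3040 to 3621 higher and 1468 to 1999 lower, 21 to 24 such lists, and 3721 to 4579 calls in the Tex10-deficient libraries. The difference between genotypes had 2 calls with a pseudocount of 5 and 0 to 670 with 1 library left out. The labels number replicates in each group without saying what a number shares, and deviations of same-numbered libraries correlated at 0.193 (wild type) and 0.207 (Tex10-deficient). With the replicate number as a block, 6816 wild-type genes were called (4238 higher and 2578 lower), 6193 in the Tex10-deficient libraries, none for the difference in limma, and 20 lists. With 2 libraries per group, which of them is typical cannot be told apart.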
